A study of Homo sapiens with 4 samples.

Results

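The FGF receptors and feedback genes are 10 named human genes: the receptor genes FGFR1, FGFR2 and FGFR3, the ligand gene FGF2, the feedback inhibitor genes SPRY1, SPRY2, SPRY4 and DUSP6, and the transcription factor genes ETV4 and ETV5. They were taken by name from 19970 protein-coding genes, and all 10 were found in the RefSeq annotation of GRCh38.p14. Every BAF45D peak of each gene was then collected and put in 1 of 3 places: at a gene end (within 1 kb of either end), in the gene away from its ends, or outside the gene but within 50 kb. A gene with its 50 kb flanks is called its locus here, and the 10 loci sum to 1.38 Mb.

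BAF45D, the product of DPF2, belongs to BAF, a complex that moves and ejects nucleosomes. Its DNA neighbourhood was profiled by CUT&Tag, in which an antibody (here rabbit anti-BAF45D) brings a transposase to the DNA beside the protein, with 100000 cells per assay. All 4 libraries came from H9, an established human embryonic stem cell line. ESC1 and ESC2 are embryonic stem cells kept on Matrigel in mTeSR1, a medium that itself supplies FGF2. NSC1 and NSC2 are spinal cord neural stem cells made from them over 10 days in N2B27 with FGF2 and FGF8 (100 ng/ml of each), 100 nM LDN-193189 (a BMP receptor inhibitor), 10 µM SB431542 (a TGF-beta receptor inhibitor), 4 µM CHIR-99021 (a GSK3 inhibitor that activates WNT signalling) and 10 µM DAPT (a gamma-secretase inhibitor that blocks Notch), with the ROCK inhibitor Y-27632 at passaging. The labels then name a maintenance medium with Hh-Ag 1.5 (a hedgehog agonist, 200 nM), 2 µM SB-431542 and 3 µM CHIR-99021, then 5 subpassages in induction medium, and last N2B27 with EGF and FGF2, each at 20 ng/ml. They do not say at which of these stages the cells were assayed, so the FGF given to the NSC at harvest is not known, and cell type and medium cannot be told apart. Nothing in the labels says that ESC1 and ESC2, or NSC1 and NSC2, were separate cultures, so the spread between them may be technical.

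FGF ligands bind tyrosine kinase receptors, which signal through the adaptors FRS2 and GRB2 to RAS and the kinases MEK and ERK. The pathway switches on its own brakes: Sprouty proteins (the SPRY genes) act on the chain above ERK, and DUSP6 removes phosphate from ERK in the cytoplasm. ETV4 and ETV5 are ETS transcription factors of the PEA3 group, induced by FGF signalling in many embryonic tissues. Human embryonic stem cells are kept in FGF2 to stay undifferentiated, and FGF2 is also the standard mitogen of cultured neural stem cells. A peak of BAF45D is a place where the protein was found near DNA, not a measure of the gene's expression, which was not measured here.

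Promoter sequences from the RefSeq tables of GRCh38.p14 (250 bases before to 50 after an annotated start) were matched for 7 members and 14 starts; FGFR1, ETV4 and ETV5 have no entry there. The 5 windows that a peak of any library touched are shown. They read 5′ to 3′ on the strand of the gene. Capitals mark matches, on both strands, to CCGGAA (a form of the ETS factor site), ACAANG (a form of the SOX factor site) or CCAAT. These 3 motifs did not overlap each other in these windows. Shorter or other forms of the ETS and SOX sites, such as GGAA alone, were not searched or marked. First come the outer FGFR2 start (chr10:121598395-121598694, minus strand, touched in NSC1 and NSC2) and an inner FGFR2 start (chr10:121596596-121596895, minus strand, touched in all 4 libraries). Next are DUSP6 (chr12:89352452-89352751, minus strand, all 4 libraries), SPRY2 (chr13:80341077-80341376, minus strand, NSC1 and NSC2) and SPRY1 (chr4:123396545-123396844, plus strand, ESC2 alone).
FGFR2 outer start: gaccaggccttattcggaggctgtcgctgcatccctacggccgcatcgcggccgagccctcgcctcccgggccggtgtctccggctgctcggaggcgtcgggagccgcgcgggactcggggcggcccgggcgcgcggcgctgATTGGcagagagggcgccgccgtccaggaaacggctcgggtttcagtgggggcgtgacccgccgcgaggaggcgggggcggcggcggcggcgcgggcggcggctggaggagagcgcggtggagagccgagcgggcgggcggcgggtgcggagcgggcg
FGFR2 inner start: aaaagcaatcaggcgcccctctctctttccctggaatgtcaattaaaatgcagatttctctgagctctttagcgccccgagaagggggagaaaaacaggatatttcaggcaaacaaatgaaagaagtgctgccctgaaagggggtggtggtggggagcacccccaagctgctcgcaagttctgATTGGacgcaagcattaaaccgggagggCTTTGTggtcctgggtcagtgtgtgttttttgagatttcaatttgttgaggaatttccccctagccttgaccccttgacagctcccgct
DUSP6: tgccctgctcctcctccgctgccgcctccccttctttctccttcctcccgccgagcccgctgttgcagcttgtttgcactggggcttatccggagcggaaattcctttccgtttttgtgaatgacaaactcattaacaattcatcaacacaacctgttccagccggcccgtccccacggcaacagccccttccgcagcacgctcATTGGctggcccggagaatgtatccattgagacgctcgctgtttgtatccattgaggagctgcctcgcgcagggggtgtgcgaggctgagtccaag
SPRY2: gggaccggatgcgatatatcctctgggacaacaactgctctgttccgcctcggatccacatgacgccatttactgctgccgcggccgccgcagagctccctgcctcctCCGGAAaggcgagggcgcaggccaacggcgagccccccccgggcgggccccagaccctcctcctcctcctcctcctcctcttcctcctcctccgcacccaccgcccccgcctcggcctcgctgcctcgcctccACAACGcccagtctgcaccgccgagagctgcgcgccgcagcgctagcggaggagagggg
SPRY1: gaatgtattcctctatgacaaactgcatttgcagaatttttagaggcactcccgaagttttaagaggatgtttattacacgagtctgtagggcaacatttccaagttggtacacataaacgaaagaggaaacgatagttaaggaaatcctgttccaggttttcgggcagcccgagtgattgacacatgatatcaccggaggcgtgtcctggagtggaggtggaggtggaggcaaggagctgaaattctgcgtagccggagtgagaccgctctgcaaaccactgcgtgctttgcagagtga

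The outer FGFR2 window is 79.3% G and C with 52 CpG, and the inner one 50.3% with 7 CpG, against medians of 58.7% and 14 CpG over all 35116 promoter windows. DUSP6 stands at 58.3% with 19 CpG, SPRY2 at 71.0% with 30 and SPRY1 at 47.7% with 12. The outer FGFR2 window and that of DUSP6 each hold 1 CCAAT match, and the inner FGFR2 window holds 1 CCAAT and 1 ACAANG match. SPRY2 holds 1 CCGGAA and 1 ACAANG match, and SPRY1 none of the 3. Over all promoter windows, 17.2% held CCGGAA, 35.5% ACAANG and 34.6% CCAAT. The letters TGANTCA (bound by AP-1) and TGACGTCA (the cyclic AMP response element), searched on both strands, were in 0 of the 14 member windows, and in 7.71% and 1.85% of all windows. These matches describe the letters only.

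On chromosomes 1 to 22 and X, ESC1 and ESC2 gave lists of 4204 and 12533 peaks from 20734829 and 18953543 tags. NSC1 and NSC2 gave 29783 and 24669 peaks from 5566407 and 5377831 tags. The NSC lists were thus longer from fewer tags, and that of ESC1 was the shortest. Peaks were called in each library against its own background, so −log10 q values are compared within a list only, as ranks or percentiles (the highest is strongest). A missing peak says that no signal passed q 0.05 in that library, not that BAF45D was absent. Among stem cell markers, SOX2 and LIN28A had a gene-end peak in all 4 libraries, DNMT3B in ESC2 alone, and POU5F1 and NANOG in none. Of the neural stem cell markers, SOX1, NES, MEIS1 and MEIS2 had gene-end peaks in NSC1 and NSC2 alone and PAX6 in none. Gene ends of neural crest markers (SOX10, FOXD3, TFAP2A) had no peak in any library. Of the neuron markers, MAP2 had gene-end peaks in NSC1 and NSC2 alone, STMN2 in ESC2 and NSC1, and TUBB3 and RBFOX3 in none. Of the mesoderm and endoderm markers, MESP1 had a gene-end peak in NSC1 alone, and TBXT, SOX17 and FOXA2 had none. Over all protein-coding genes, 16.2% had an end called in NSC1 and NSC2 alone and 51.1% in no library. These calls are therefore no check of cell identity.

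BAF45D lay at the ends of 6 members in each NSC library, against 2 in ESC1 and 3 in ESC2. Over all protein-coding genes, 42.8% had a gene-end peak in NSC1, 38.1% in NSC2, 6.67% in ESC1 and 22.8% in ESC2. The 6 NSC genes were the same in NSC1 and NSC2: FGFR2, SPRY2, SPRY4, DUSP6, ETV4 and ETV5. DUSP6 and ETV5 were called in all 4 libraries (2 of 10 members, 5.88% of all genes). FGFR2, SPRY2, SPRY4 and ETV4 were called in NSC1 and NSC2 but in neither ESC list (4 of 10, 16.2% of all genes). SPRY1 was called in ESC2 alone, a pattern of 2.12% of all genes, and FGFR1, FGFR3 and FGF2 at no end in any library (51.1% of all genes). No member had the converse pattern of both ESC lists without NSC, which 0.245% of all genes showed. With 10 genes, each gene is 10% of the members, so these shares are coarse, and no test was made of the list.

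**Figure D1:**
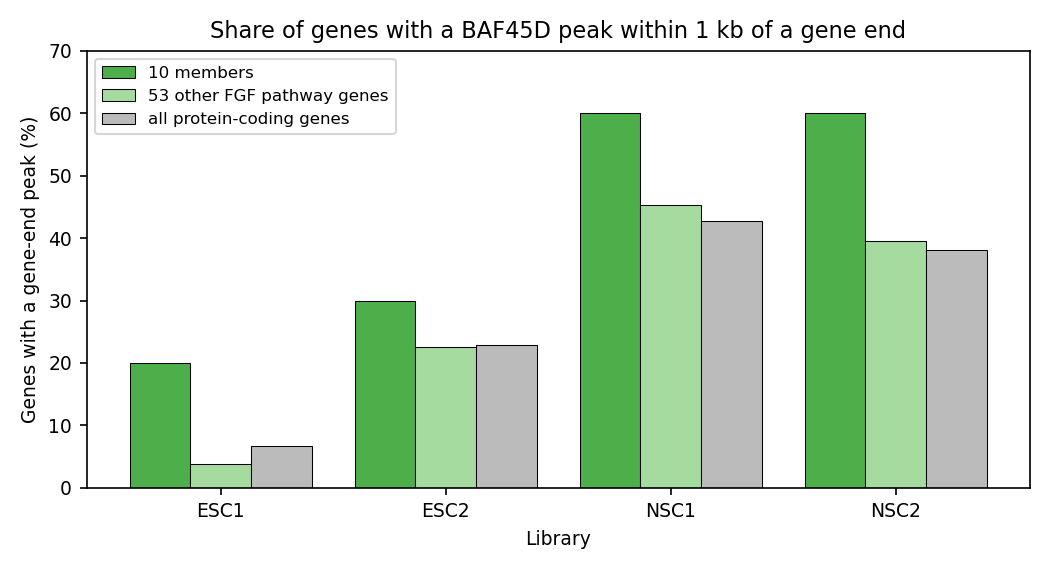
Bars give the percent of genes with a BAF45D peak within 1 kb of a gene end (y axis, from 0) in each of the 4 libraries (x axis), for the 10 members, 53 other FGF pathway genes and all 19970 protein-coding genes. The members stand at 20%, 30%, 60% and 60% in ESC1, ESC2, NSC1 and NSC2, and the other pathway genes lie near the level of all genes.

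The peaks behind the NSC gene-end calls of FGFR2, SPRY2, SPRY4 and ETV4 stood between percentiles 23.7 and 81.2 of their lists, and the calls changed with list length. When each list was shortened to its 4204 strongest peaks, the length of ESC1, gene-end peaks were left at DUSP6 and ETV5 only, in all 4 libraries (2 of 10 members, 3.7% of all genes at that length). None of the 10 members then had an end called in NSC alone, and over all genes that class fell to 2.2%. The ends of SPRY2 came nearest to that length, with ranks of 5587 in NSC1 and 4765 in NSC2. FGFR2 ranked 12682 and 18826 there.

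The receptor FGFR2 showed a split between its starts. Its outer start (gene at chr10:121478330-121598458, minus strand) had a peak at chr10:121598416-121598906 in NSC1 (−log10 q 6.14) and at chr10:121598455-121598834 in NSC2 (3.30), and none in ESC1 or ESC2. The summits lay 217 and 123 bp upstream of the gene's 5′ end, and the peaks covered 279 and 240 of the 300 bases of the outer window printed above. About 2 kb inside the gene, the region chr10:121596103-121596826 was called in all 4 libraries, with −log10 q of 2.12 and 5.77 in ESC1 and ESC2 and of 2.76 and 5.31 in NSC1 and NSC2. There the peaks covered 43, 231, 77 and 177 bases of the inner window in the same order. The outer start was thus called in the NSC lists alone and the inner one in every list, both at modest ranks, since the inner peaks stood at percentiles of 16.6, 65.0, 14.6 and 51.2. With a gene-end window of 2.5 kb the inner region counts as a gene end, and FGFR2 joins the genes called in all 4 libraries. With a −log10 q minimum of 3 the inner call is lost in ESC1 and NSC1. When the lists are of equal length, FGFR2 keeps a peak in ESC1 alone. The remaining 3 annotated starts of FGFR2 had no peak in any library.

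Further inside FGFR2, the region chr10:121579711-121580573 was called in NSC1 (−log10 q 9.99), NSC2 (9.21) and ESC2 (2.53) but not in ESC1. It held the strongest peak of the locus in both NSC lists, at percentiles of 77.6 and 76.5, against 22.4 in ESC2. A weaker region at chr10:121553625-121554182 was called in NSC1 (3.84) and NSC2 (3.49) alone, with summits 7 bp apart. Beyond the gene, NSC1 alone had peaks 18.2 and 41.2 kb away.

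FGFR1 encodes a receptor present on many cell types, neural progenitors among them. Its ends had no peak in any library, while its body held several. The gene lies at chr8:38411143-38468635. Inside it, 3 regions were called in NSC1 and NSC2 alone: chr8:38430277-38430667 (−log10 q 3.51 and 2.51), chr8:38440719-38441257 (8.94 and 3.57) and chr8:38450694-38451133 (4.37 and 2.00). These are weak calls for the most part, the percentiles in NSC2 being 13.0, 28.4 and 6.70. One more, chr8:38442291-38442690, was called in ESC2 (4.40) and NSC1 (1.88). Outside the gene, chr8:38386047-38386820, within the neighbour LETM2, was called in ESC2 (9.60), NSC1 (8.66) and NSC2 (13.8). On the other side, chr8:38509931-38510715 was called in NSC1 (4.86) and NSC2 (6.90) alone. There too, chr8:38502356-38502680 was called in NSC1 alone (6.79) and chr8:38502766-38502965 in ESC2 alone (2.93). ESC1 had no peak in the FGFR1 locus.

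FGFR3, the receptor gene at chr4:1793293-1808867, had no peak at its ends or in its body in any library. It was the single member whose locus was called in NSC alone (1 of 10, 17.2% of all genes). The region 15.0 kb outside the gene on its 5′ side, chr4:1778061-1778305, had −log10 q of 4.26 in NSC1 and 4.23 in NSC2, with summits 3 bp apart. The other, chr4:1856173-1856418 (11.4 and 6.76), is 47.3 kb away and at the end of LETM1, which encodes a mitochondrial ion exchanger.

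The ligand gene FGF2 (chr4:122826682-122898236) also had no peak at its ends or inside. Its locus held 2 regions. Of these, chr4:122922762-122923157 was called in all 4 libraries (2.22 and 6.88 in ESC1 and ESC2, 6.56 and 6.11 in NSC1 and NSC2), but it lies within 1 kb of an end of both NUDT6 and AFG2A, 24.5 kb from FGF2. The distal region chr4:122783254-122783701, 43.0 kb from the 5′ end, was called in ESC2 (3.42), NSC1 (19.8) and NSC2 (7.49). In NSC1 it ranked 1980 of the list, at percentile 93.4, while in ESC2 it stood at 38.4. In number of peaks, the FGF2 locus hardly differed between the cell types, with 1, 2, 2 and 2 in ESC1, ESC2, NSC1 and NSC2.

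**Figure D2:**
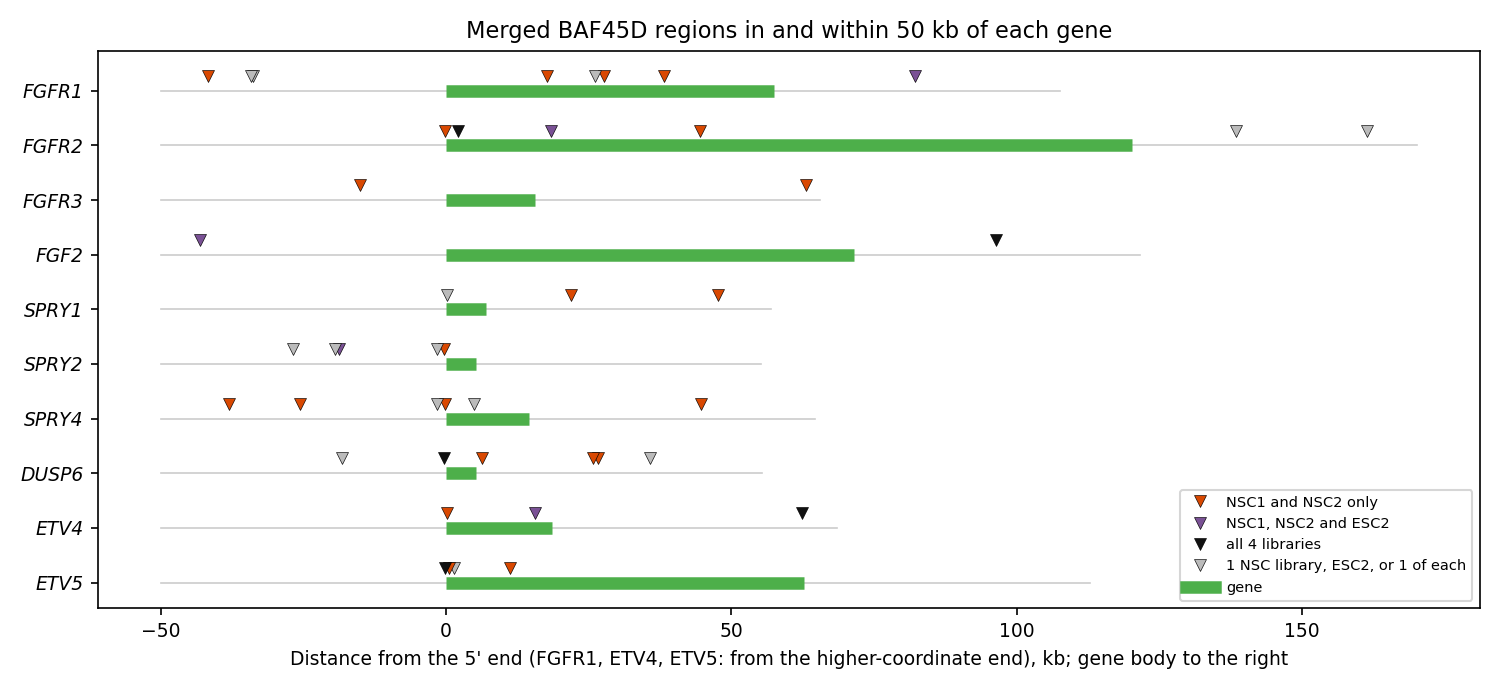
Each row is a gene (green bar, with 50 kb on either side), oriented with its 5′ end at 0 and the body to the right, except that FGFR1, ETV4 and ETV5 are set at their higher-coordinate end; the x axis is distance in kb and triangles mark the centres of merged regions, coloured by the libraries that called them. Regions of all 4 libraries (black) stand near 0 for FGFR2, DUSP6 and ETV5 and outside the gene for FGF2 and ETV4, while FGFR3 and FGF2 have none over the gene.

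Among the Sprouty genes, BAF45D marked the 5′ ends of SPRY2 and SPRY4 in NSC, and that of SPRY1 in ESC2 alone. At SPRY2 (chr13:80335976-80341126) the peaks were chr13:80341163-80341927 in NSC1 (−log10 q 11.2) and chr13:80341124-80341807 in NSC2 (10.5), at percentiles of 81.2 and 80.7. Their summits lay 249 and 220 bp upstream of the 5′ end, and they covered 214 and 253 bases of the printed window. The other 2 annotated starts of SPRY2, inside the gene, had no peak. About 18.2 kb upstream of SPRY2, the region chr13:80359303-80360363 was called in NSC1 (19.9), NSC2 (7.64) and ESC2 (3.39). So an ESC library did call the SPRY2 locus, away from the gene itself. In NSC1 the distal peak ranked above the one at the gene end, and in NSC2 below it.

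SPRY4 (chr5:142310430-142325021, minus strand) had the peak chr5:142324876-142325339 in NSC1 (9.79) and chr5:142325016-142325466 in NSC2 (4.39), with summits 22 and 94 bp upstream of its outermost 5′ end. The promoter window of SPRY4 in the RefSeq table starts from an inner start and had no peak. ESC2 had a peak nearby, chr5:142326303-142326807 (5.81, percentile 65.3), 1.28 kb beyond the gene and so just outside the gene-end window, which both NSC lists lacked. With a window of 2.5 kb SPRY4 is therefore no longer called in NSC alone. The strongest peaks of the locus were distal, in chr5:142362604-142363435, 37.6 kb upstream, with 16.8 in NSC1 and 20.1 in NSC2 and none in ESC. They ranked 2772 and 1365, which made it the one region of the 10 loci that was called in NSC alone at equal list length. On the whole lists, NSC1 and NSC2 alone also called chr5:142280170-142280703 (10.0 and 8.71) and chr5:142350109-142351023 (1.82 and 2.39). In the gene, chr5:142319754-142320388 was called in NSC1 alone (3.71).

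At the end of SPRY1 (chr4:123396795-123403760), the peak chr4:123396755-123396965 was called in ESC2 (3.91) and in no other library, ESC1 included. Its summit lay 46 bp inside the gene and the peak covered 90 bases of the printed window. At percentile 46.7 this is a peak of middle strength, and it is lost at −log10 q of at least 5. The other annotated start of SPRY1, inside the gene, had no peak. In NSC, the locus instead held 2 downstream regions, chr4:123418479-123418760 (2.85 in NSC1 and 9.49 in NSC2) and chr4:123444136-123444777 (6.95 and 4.11), 14.7 and 40.4 kb from the gene. ESC1 and ESC2 called neither. At equal list length the SPRY1 locus had no peak in any library.

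The 5′ end of the ERK phosphatase gene DUSP6 (chr12:89347235-89352501, minus strand) was called in all 4 libraries. The −log10 q was 2.01 and 20.5 in ESC1 and ESC2 and 25.5 and 13.6 in NSC1 and NSC2. ESC2 and NSC2 had the summit at the same base, 173 bp upstream of the 5′ end, NSC1 had it 13 bp upstream and ESC1 54 bp inside. All 4 peaks covered the printed window over its full 300 bases. Within the lists the DUSP6 start ranked 723 in ESC2 (percentile 94.2), 1089 in NSC1 (96.3) and 3106 in NSC2 (87.4), but 3584 of 4204 in ESC1 (14.7). ESC1 is thus the weak point of the call, and DUSP6 is not in the class of all 4 libraries at −log10 q of at least 3.

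Around DUSP6, more places were called in NSC alone. At the 3′ end, chr12:89345901-89346617 had −log10 q of 13.2 in NSC1 and 14.7 in NSC2, the latter stronger than at the start. About 20 kb beyond the 3′ end lay 2 regions, chr12:89325560-89326124 (5.87 and 2.94) and chr12:89326602-89327070 (5.78 and 11.4). The locus held 5 and 7 peaks in NSC1 and NSC2 against 1 in each ESC library. These counts include a further NSC peak upstream of the start (13.2 in NSC1 and 4.33 in NSC2), which the ESC2 peak at the start overlaps, so that place was not called in NSC alone. The region at the start is also annotated to a read-through gene, POC1B-DUSP6.

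ETV5 had the strongest gene-end peaks of the 10 genes in NSC. At its higher-coordinate end (gene at chr3:186046314-186109089) the region chr3:186108900-186109567 had −log10 q of 3.90 and 19.2 in ESC1 and ESC2 and of 43.3 and 28.2 in NSC1 and NSC2. The ranks were 2037, 813, 215 and 570, or percentiles of 51.5, 93.5, 99.3 and 97.7. Summits of the 4 libraries fell within 110 bp of each other, 98 to 208 bp beyond the gene. A separate region inside that end, chr3:186108378-186108646, was called in NSC1 (9.17) and NSC2 (6.89) alone. In the body, chr3:186097777-186098105 was called in NSC1 (3.40) and NSC2 (9.85) and in neither ESC list. No peak lay in the 50 kb on either side of ETV5.

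ETV4 (chr17:43527846-43546340) differed from ETV5 at its end. The region chr17:43545763-43546644 was called in NSC1 (9.96, the stronger of 2 peaks) and NSC2 (6.11) and in no ESC library, at percentiles of 77.5 and 58.9. Part of it is also within 1 kb of the end of DHX8, an RNA helicase gene that overlaps ETV4. In the body, chr17:43530437-43531209 was called in ESC2 (6.90), NSC1 (9.15) and NSC2 (11.3), with summits of the 3 within 26 bp, and DHX8 covers this place too. A region called in all 4 libraries, chr17:43483630-43484318 (4.92, 7.90, 30.6 and 14.9 in ESC1, ESC2, NSC1 and NSC2), is at the far end of DHX8, 43.5 kb from ETV4.

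**Figure D3:**
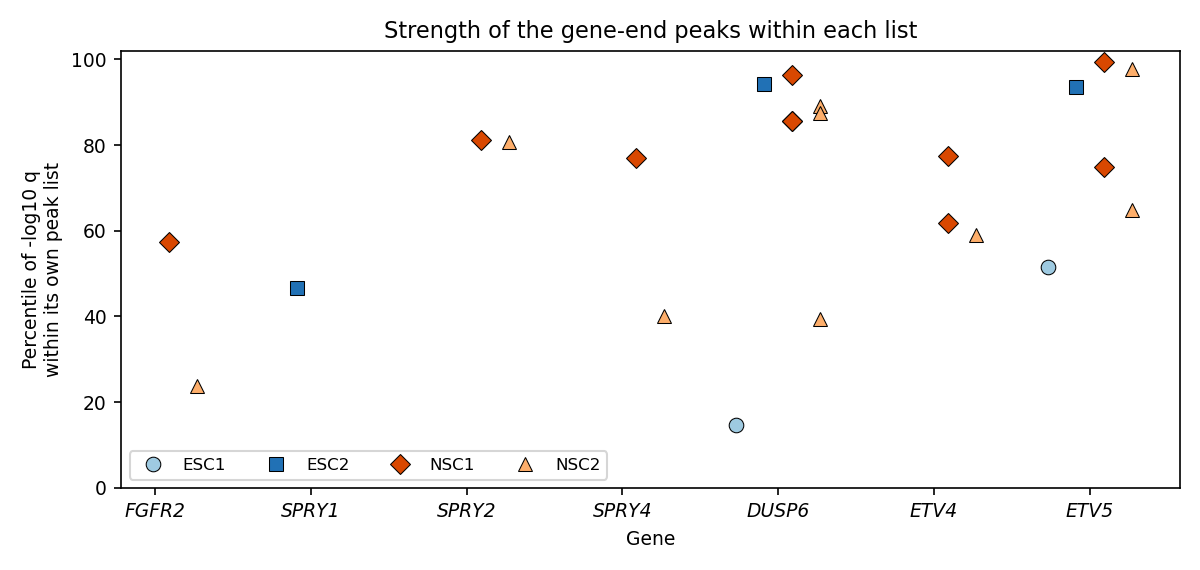
Points give the percentile of −log10 q within the peak's own list (y axis) for every gene-end peak of the 7 genes that had one (x axis), by library. DUSP6 and ETV5 are the genes with points of all 4 libraries, whose strongest ESC2 and NSC1 peaks are above 90, with ESC1 at 14.7 and 51.5; 2 NSC1 points of DUSP6 overlap near 85.5.

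Counted over the whole loci, the NSC libraries had more peaks at these genes than the ESC libraries. The 10 loci held 5 and 14 peaks in ESC1 and ESC2 and 41 and 35 in NSC1 and NSC2. The ESC libraries averaged 9.5 ± 6.36 and the NSC libraries 38 ± 4.24 (SD, n = 2). The groups did not overlap, the difference of the means was 28.5 peaks and the ratio 4.00, and a two-sided exact permutation test gave p = 0.333, the smallest value that 2 libraries against 2 can give. The excess moved with the length of the lists. The 10 loci took 0.119% and 0.112% of the peaks in ESC1 and ESC2 and 0.138% and 0.142% in NSC1 and NSC2. At 4204 peaks per list the counts were 5, 6, 6 and 7 in ESC1, ESC2, NSC1 and NSC2, a difference of 1 peak (exact permutation p = 0.667).

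**Figure D4:**
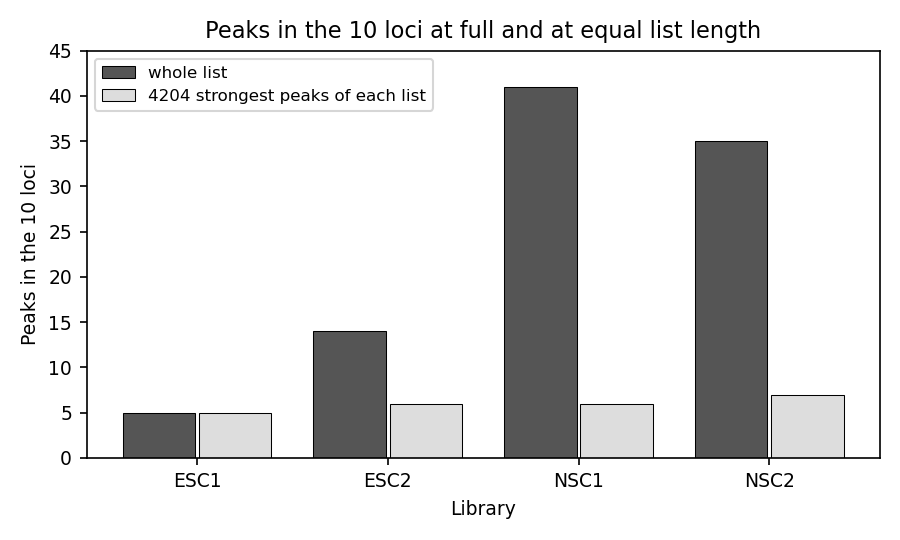
Bars give the number of peaks in the 10 loci (y axis, from 0) in each library (x axis), for the whole lists (dark) and for the 4204 strongest peaks of each list (light). The dark bars rise from 5 and 14 in ESC to 41 and 35 in NSC, and the light bars lie between 5 and 7.

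Per length, the median locus of the 10 held 3.05 and 2.20 peaks per 100 kb in NSC1 and NSC2, against medians of 1.34 and 0.98 over the loci of all protein-coding genes. In ESC1 and ESC2 the medians were 0.227 and 0.942 for the 10 and 0 and 0.721 for all genes. The median gene length was 17.0 kb over the members and 24.2 kb over all genes, with FGFR1, FGFR2, FGF2 and ETV5 above the latter. Each of the 10 loci had a peak in NSC1 and in NSC2 (82.2% and 79.1% of all genes, and 75.6% in both), while 9 had one in ESC2 and 5 in ESC1 (65.6% and 29.2% of all genes). The 5 loci called in all 4 libraries were FGFR2, FGF2, DUSP6, ETV4 and ETV5 (24.5% of all genes). On the whole lists, the mean number of peaks was higher in NSC in every locus, from 0.5 more at FGF2 to 5 more at DUSP6. Both NSC lists were longer over the whole genome, and the share of all genes with such a difference was not counted. It is thus not shown to be a trait of these 10 genes. At equal list length the difference stayed above 0 only at SPRY2 (0.5), SPRY4 (1) and DUSP6 (1). It was 0 at FGFR1, FGFR3, SPRY1 and ETV5 and -0.5 at FGFR2, FGF2 and ETV4.

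**Figure D5:**
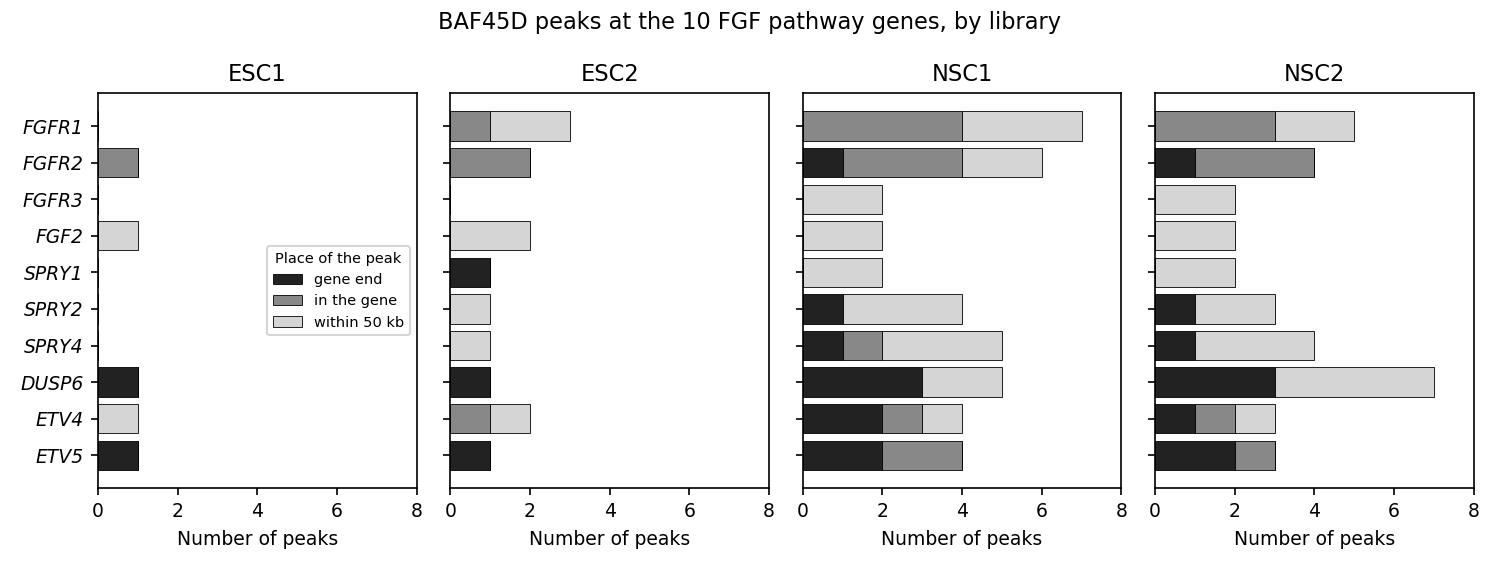
Horizontal bars give the number of peaks (x axis) at each gene (y axis) in the 4 libraries (panels), split by place: gene end, in the gene, or within 50 kb. FGFR1 and DUSP6 reach 7 peaks, in NSC1 and NSC2 respectively, and no gene has more than 3 in an ESC library.

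Merging overlapping peaks of the 4 libraries gave 45 regions in the loci, of which 21 were called in NSC1 and NSC2 alone (46.7%, against 30.6% of all regions of the genome). Regions of all 4 libraries numbered 5 (11.1%, against 3.27%), and 0 were called in both ESC lists without NSC (1.65% of all regions). A further 5 were called in NSC1, NSC2 and ESC2, 10 in a single NSC library, 3 in ESC2 alone and 1 in ESC2 with NSC1. ESC1 called no region of its own: its 5 peaks all lay in regions shared by the 4 libraries. Of the 31 regions called in both NSC lists, the 10 with an ESC peak had higher NSC ranks, with median percentiles of 85.5 and 79.7 in NSC1 and NSC2, than the 21 without (57.4 and 58.9). This is a description within the lists, and their ranges overlapped, from 14.6 to 99.3 against 4.08 to 90.7 in NSC1. In those 31 regions the NSC1 and NSC2 summits were a median of 33 bp apart, from 3 to 304 bp.

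By place, regions called in NSC alone were 6 of 9 at gene ends, 5 of 11 in genes and 10 of 25 in the flanks. Over the regions of all protein-coding loci, counted once for each gene they fall to, the shares were 29.9%, 31.8% and 25% in the same order. Regions of all 4 libraries were 2 of 9, 1 of 11 and 2 of 25, against 9.73%, 1.4% and 6.45% over all loci. With 9 to 25 regions in a place, no difference between places was tested. Of the 14 annotated promoter windows of the members, 4 were touched by a peak in each NSC library, 3 in ESC2 and 2 in ESC1, and 9 in none. Over all annotated windows on these chromosomes, the shares were 27.4% in NSC1, 24% in NSC2, 13.1% in ESC2 and 3.56% in ESC1.

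Of 53 other FGF pathway genes, 9 had an end called in NSC1 and NSC2 alone (17.0%, against 16.2% of all genes) and 2 in all 4 libraries (3.77%, against 5.88%), so their shares lay near the background. Among 17 further FGF ligand genes, 14 had no gene-end peak in any library, like FGF2 (82.4%, against 51.1% of all genes). FGF6 (−log10 q 7.80 in NSC1 and 3.86 in NSC2) was the one called in NSC alone (5.88%, against 16.2%). The 4 other receptor and coreceptor genes (FGFR4, FGFRL1, KL and KLB) had no end called in both NSC lists, which 34.5% of all genes had. Of 17 genes of the chain from adaptor to ERK, 0 were called in all 4 libraries (5.88% of all genes). In NSC alone, 5 were called (29.4%, against 16.2% of all genes). These included GRB2, the adaptor that recruits SOS (12.3 in NSC1 and 4.84 in NSC2), SOS2, a RAS exchange factor (11.6 and 9.89), MAP2K1, which encodes the kinase MEK1 (13.1 and 4.58), and the docking protein gene GAB1 (6.01 and 5.70).

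Of 10 other feedback inhibitor genes, 2 were called in NSC alone (20.0%, against 16.2% of all genes). They were the ERK phosphatase genes DUSP4 (10.6 in NSC1 and 6.70 in NSC2) and DUSP7 (2.34 and 3.06). SPRED3, of a family related to Sprouty, was called in all 4 libraries (1.76, 15.0, 10.8 and 14.1 in ESC1, ESC2, NSC1 and NSC2). It is 10.0% of these genes, against 5.88% of all genes. Among 5 other target genes, ETV1 was called in all 4 libraries, with 4.67, 19.5, 36.0 and 23.7 in the same order, and FOS in NSC alone (19.4 and 11.5). Each is 20.0% of these 5 genes, against 5.88% and 16.2% of all genes. Of the 3 PEA3 group genes, ETV1 and ETV5 thus had an end called in every library, and ETV4 in NSC alone.

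Likeness was measured as the number of places, out of 12 (3 places by 4 libraries), in which the presence of a peak differed, ties being settled by gene length. The pattern of FGFR3 was identical to that of FGFRL1, FGF2 to SPSB1, SPRY2 to FOS and ETV4 to GRB2. SPRY1 differed from FGF19, SPRY4 from FOS and ETV5 from ETV1 in 1 place, FGFR1 from FGF1 in 2 and FGFR2 from SOS2 in 3. For FGFR3, FGF2 and SPRY1, 6 pathway genes tied at the smallest number, since few peaks make for few patterns. With FGFR1, 4 genes tied, and with SPRY4 and ETV5, 2 each, so gene length settled these pairs too.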

How the data were processed

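The data were peak lists of 4 CUT&Tag libraries. FastQC, Trimmomatic, BWA 0.7.12 and hg38 are named in the submitters' processing notes. Per the file headers, the authors called peaks in each library with MACS2 2.1.0.20150420 on unique, deduplicated reads, with no control, q 0.05, shift -100 bp and extension 200 bp. The values the authors deposited per peak are the summit's pileup signal, a −log10 p and a −log10 q value, and the fold enrichment as a ratio over a regional background of 10000 bp, all within 1 library. Assay background was not measured here, since only anti-BAF45D libraries were used. The total tags in the headers are the depth.

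Summits of 1 interval were joined, keeping the highest −log10 q. Peaks were placed against RefSeq genes of GRCh38.p14 by any overlap of 1 bp, on chromosomes 1 to 22 and X, with Python 3.11.15 and pandas 2.3.3. The steps were tested on simulated data. Single genes have no test; the count of peaks was tested by exact permutation over libraries. The members, lists and tests were chosen with earlier results of these data known. Named pathway genes were those with an end called in NSC alone or in all 4 libraries, up to 4 of each list and class by mean percentile, and the gene most like each member, of which 1 is not reported here. Alternatives covered the q threshold, list length, windows, merging and left-out libraries.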

Additional observations from a re-analysis of the deposited data

How the results depend on the processing

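The higher number of peaks in NSC kept its direction under the 11 alternatives run for it. The difference was 1 peak at equal list length, 40 with 100 kb flanks and 24 to 33 when a library was left out. Both NSC counts exceeded both ESC counts, so leaving out a library or adding a replicate block could not change the direction. With a replicate block (ESC1 with NSC1, ESC2 with NSC2) the difference was 28.5 and the exact sign-flip p = 0.5, the smallest that 2 pairs can give; the numbers share no stated culture, and deviations of same-numbered libraries correlated at -0.029 over 19970 genes.

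Members with an end called in NSC alone (4) numbered 0 at equal list length, 2 at a −log10 q minimum of 5 and 2 with windows of 2.5 kb. Those called in all 4 libraries (2) numbered 1 at a −log10 q minimum of 3, 0 at 5, and 1 at the 5′ ends of the 7 members with a strand. In that last setting DUSP6 kept its call, and ETV5 was left out for want of a strand. Loci called in NSC alone (1) numbered 3 at a −log10 q minimum of 5 and 1 to 5 with a library left out, the 5 being without ESC2. Loci called in all libraries (5) numbered 2 and 0 at a −log10 q minimum of 3 and 5, 3 at equal list length, 3 with 10 kb flanks and 5 to 9 with a library left out, the 9 without ESC1. Regions called in NSC alone (21) numbered 11 at a −log10 q minimum of 5, 1 at equal list length, 11 with 10 kb flanks and 21 to 29 with a library left out. Regions of all libraries (5) numbered 2 and 0 at a −log10 q minimum of 3 and 5, 3 at equal list length, 3 with 10 kb flanks and 5 to 10, the 10 without ESC1. Regions called in ESC alone (0) numbered 1 at equal list length and 0 to 3, the 3 without ESC1. With a library left out, each class asks for the remaining libraries only and is easier to meet. The 3 without ESC1 are thus the regions called in ESC2 alone.

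The difference in peaks between NSC and ESC fell to 0 at FGFR1, FGFR3, SPRY1 and ETV5 at equal list length. It was also 0 at FGFR3 and FGF2 with 10 kb flanks, and at FGF2 without ESC1. It turned to -0.5 at FGFR2, FGF2 and ETV4 at equal list length and at SPRY1 with 10 kb flanks. Among 207 values of single genes under the alternatives, 166 stayed within 1.5 times, 37 moved further and these 4 reversed. The causes of these changes were not tested. By construction some alternatives hold fewer peaks, while wider windows and flanks can hold more.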
